A study of Homo sapiens with 4 samples.

Results

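The 8 genes CCNE1, URI1, C19orf12, PLEKHF1, POP4, UQCRFS1, VSTM2B and TSHZ3 were taken from the deposited tables by symbol, as 8 of 62696 gene rows. They lie around CCNE1 in band 19q12, which is known to be amplified in OVCAR3, an established line of human high-grade serous ovarian carcinoma cells. Copy number was not measured here. The 8 were chosen for this position and not for their values, though earlier results of these data were known. The tested cells were OVCAR3 carrying a short hairpin RNA against the pseudogene transcript ANAPC1P2 (KD, 3 libraries, sets 1 to 3), and the comparison was with 1 library of wild-type OVCAR3 (WT). Both were grown in RPMI medium with 10% fetal bovine serum. No library is labelled as carrying a non-targeting hairpin, so carrying a hairpin and targeting ANAPC1P2 cannot be told apart. The labels do not say whether the 3 sets were separate cultures, hairpins or preparations, so the p-values measure only how far these libraries differ, and that spread may be technical.

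Cyclin E1, the product of CCNE1, binds and activates the kinase CDK2 and so drives cells from G1 into DNA replication. The ubiquitin ligase SCF with its subunit FBXW7 ends its action by destroying phosphorylated cyclin E, and CCNE1 itself is a target of E2F factors held back by the retinoblastoma protein. Amplification of 19q12 is a recurrent lesion of serous ovarian carcinoma, and the amplified segment usually carries neighbours along with CCNE1. Among those here, URI1 encodes a prefoldin-like chaperone that works with the R2TP complex, POP4 a protein subunit of the RNA-cutting enzymes RNase P and RNase MRP, and UQCRFS1 the Rieske iron-sulfur subunit of respiratory complex III. PLEKHF1 (phafin 1) is an endosomal and lysosomal protein with a PH and a FYVE domain, and C19orf12 is a mitochondrial and endoplasmic reticulum membrane protein mutated in a neurodegeneration with brain iron accumulation. VSTM2B encodes a membrane protein of the immunoglobulin fold, and TSHZ3 a zinc finger transcription factor of development.

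On GRCh38 with GENCODE 29 gene models, the 8 genes spanned 2.14 Mb of chromosome 19, from UQCRFS1 to TSHZ3. CCNE1 occupied 29811898 to 29824308 on the plus strand. Its lower neighbours were C19orf12 (29698886 to 29715789, minus strand, 96.1 kb away), PLEKHF1 (29665056 to 29675457, plus, 136.4 kb), POP4 (29604017 to 29617237, plus, 194.7 kb), VSTM2B (29526499 to 29564479, plus, 247.4 kb) and UQCRFS1 (29205321 to 29213541, minus, 598.4 kb). On the other side stood URI1 (29923644 to 30016608, plus, 99.3 kb) and TSHZ3 (31274945 to 31349547, minus, 1450.6 kb). Reads were counted per gene over annotated exons of 1488 bp (VSTM2B) to 6574 bp (POP4). The 5 genes from POP4 to URI1 shared a block of 412.6 kb.

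The promoters of CCNE1, POP4 and PLEKHF1 are shown because these neighbours differed in how far they moved between KD and WT. Each is the RefSeq window of GRCh38.p14 on the plus strand, from 250 bases before to 50 bases after the start site. All 8 genes had a window in the RefSeq table. Capitals mark matches on either strand to the GC box (GGGCGG), to the box spelled CCAAT, to an ETS motif (CCGGAAG) and to the palindromic NRF1 motif. No 2 matches overlapped in these windows. The TATA box (TATAAA) and the E2F motif in the forms TTTCCCGC, TTTCGCGC, TTTGCCGC and TTTGGCGC were searched too and had no match in these windows.
CCNE1 promoter, chr19:29811741-29812040: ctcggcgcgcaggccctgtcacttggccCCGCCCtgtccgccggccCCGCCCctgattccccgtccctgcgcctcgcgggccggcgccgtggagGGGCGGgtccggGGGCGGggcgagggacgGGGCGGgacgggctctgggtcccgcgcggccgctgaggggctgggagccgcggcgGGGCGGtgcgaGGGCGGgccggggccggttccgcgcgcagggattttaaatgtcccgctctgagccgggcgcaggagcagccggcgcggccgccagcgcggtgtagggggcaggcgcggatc
POP4 promoter, chr19:29606033-29606332: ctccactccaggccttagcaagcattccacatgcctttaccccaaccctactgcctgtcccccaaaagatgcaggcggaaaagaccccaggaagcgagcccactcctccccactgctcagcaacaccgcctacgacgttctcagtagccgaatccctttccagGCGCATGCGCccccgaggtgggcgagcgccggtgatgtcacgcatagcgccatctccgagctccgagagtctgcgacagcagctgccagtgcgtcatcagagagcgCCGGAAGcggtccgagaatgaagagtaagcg
PLEKHF1 promoter, chr19:29665211-29665510: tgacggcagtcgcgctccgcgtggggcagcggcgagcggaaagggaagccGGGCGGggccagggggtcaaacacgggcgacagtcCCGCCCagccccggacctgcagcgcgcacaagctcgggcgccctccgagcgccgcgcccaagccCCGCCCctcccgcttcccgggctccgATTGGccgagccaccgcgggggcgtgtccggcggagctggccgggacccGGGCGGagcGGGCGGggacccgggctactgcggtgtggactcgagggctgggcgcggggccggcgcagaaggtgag
The CCNE1 window held 7 GC boxes, and the PLEKHF1 window held 5 GC boxes and 1 CCAAT box. The POP4 window held no GC box, 1 ETS motif and 1 NRF1 motif. Among windows not shown, each of C19orf12 held 2 ETS motifs and 1 of URI1 held 1 ETS motif. That of UQCRFS1 held 2 GC boxes and no ETS motif, and the NRF1 motif was in none of the windows not shown. A link between these motifs and the differences was not tested. Of all 35116 RefSeq windows of this length, 45.0% held a GC box, 34.6% a CCAAT box, 10.3% the ETS motif, 1.24% the NRF1 motif, 11.5% the TATA box and 3.31% one of the E2F motifs. These are matches of letters, not measured binding, and a missing match says only that these letters are not in this window.

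Values are normalized read counts as deposited, which for these libraries are whole reads divided by 1 factor per library. The libraries held 42871815 to 56216398 counted reads in KD and 27868718 in WT, where 3 reads equal 3.33 normalized counts. The targeted transcript was nearly silent everywhere: ANAPC1P2 had 0, 11 and 8 reads in KD 1, 2 and 3 and 14 in WT, too few to check the knockdown. ANAPC1, the protein-coding gene it is a copy of, had 8033, 7825 and 8540.2 normalized counts in KD and 5819 in WT. A non-coding RNA, RMRP, stood at 177685 TPM (reads per exonic length, scaled to the same total in each library) in KD 1, against 50155 TPM in WT, so a level of another gene was compared between libraries by its rank or by a ratio within each library. All 14 markers of ovarian carcinoma and epithelium had reads in both groups, and their summed level was 134146 to 149361 in KD and 580140 in WT. MUC16, the CA-125 antigen gene, made up most of the WT sum, with 26757, 35345 and 24678 in KD and 458890 in WT. The other 13 summed to 107389 to 115661 in KD and 121250.0 in WT. Of these, PAX8 had 18322, 19970 and 21361 in KD and 62685 in WT, a log2 difference of -1.66. Of the 14 tests, 9 gave a higher and 4, MUC16 and PAX8 among them, a lower level in KD. Of tested protein-coding genes, 45.9% were higher and 24.7% lower.

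Markers of erythroid, leukocyte and neural cells differed between the groups. The 7 erythroid genes summed to 8.53 to 25.6 normalized counts in KD and 14706 in WT, and HBB, HBA1, HBA2 and HBG1 had no read in any KD library. HBG2, which was not tested, went the other way, with 5, 31 and 7 reads in KD and 0 in WT. The sums were 93.4 to 104.3 in KD and 1332 in WT for 10 leukocyte genes, with LYZ, CD68, FCGR3B and ITGAM at 0 in KD, and 58.3 to 78.7 in KD and 3335 in WT for 7 neural genes, with NEUROD6 and NEFL at 0 in KD. Those of 7 fibroblast genes, COL3A1 being at 0 in KD and DCN in WT, were 522 to 643 in KD and 1172 in WT, and those of 4 endothelial genes 229 to 310 in KD and 413 in WT. All 4 tested erythroid, all 7 tested leukocyte and 4 of 5 tested neural genes were called lower in KD. The share called lower was 36.3% of all tested genes and 24.7% of tested protein-coding genes, and all these markers are protein-coding. Of the fibroblast genes 2 of 5 tested were called lower, too few to set against these shares. Of the endothelial genes none of 3 tested was called in either direction. Their part in the results on 19q12 was not tested. The source of these transcripts was not tested, and bulk RNA does not show that the culture held such cells. Fewer cells of a type and less RNA per cell cannot be told apart in it either.

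All 6 genes of the group with enough reads to test were higher in KD than in WT in each of the 3 sets. POP4 changed most, 4.43-fold, then UQCRFS1 and CCNE1, both 3.03-fold, and URI1, 2.01-fold, whereas PLEKHF1 and C19orf12 changed 1.55-fold and 1.26-fold. VSTM2B and TSHZ3 were near silent. All 6 passed the test, against 31.4% of 23344 tested genes, or 45.9% of 14464 tested protein-coding genes, called higher. In the other direction, 36.3% of all tested genes and 24.7% of the protein-coding ones were called lower, and 67.7% of all tested genes were called in either direction. The median log2 difference of tested genes was -0.28, and that of protein-coding genes 0.28. With equal library totals in place of the deposited scaling, 4 of the 6 were higher and 1, C19orf12, was lower.

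CCNE1 had 7942, 7034 and 8120.0 normalized counts in KD 1, 2 and 3, and 2545 in WT. Every KD value lay above the WT value, by more than the range of the KD libraries. CCNE1 averaged 7699 ± 582 (SD, n = 3 libraries) in KD, a log2 difference of 1.59 with a standard error of 0.12 and an adjusted p of 9.7e-05 by limma. The difference lay 1.87 above the median of all tested genes and 1.31 above that of protein-coding genes. Counted with its sign, the log2 difference was lower in 88.2% of tested protein-coding genes, those that fell included.

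URI1, the chaperone gene on the far side of CCNE1, had 26675, 24443 and 26645 normalized counts in KD and 12877 in WT. It averaged 25921 ± 1280 (SD, n = 3) in KD and rose by a log2 difference of 1.01, with a standard error of 0.12 and a limma adjusted p of 0.000612. C19orf12, the membrane protein gene, had 5028, 4708 and 5168 normalized counts in KD and 3955 in WT. Its difference of 0.33 (standard error 0.10, limma adjusted p 0.0264) was close to the median of protein-coding genes, above which it lay by 0.04. The limma call of C19orf12 was lost without KD 1, with an adjusted p of 0.0825, and without KD 3, with an adjusted p of 0.0522. As RPM (reads scaled to equal library totals, not divided by length), C19orf12 had 109.5, 107.8 and 108.4 in KD and 127.8 in WT, and with equal library totals its log2 difference was -0.23.

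PLEKHF1, the endosomal gene, had 9537, 9769 and 10041 normalized counts in KD and 6323 in WT. The KD libraries lay close together and above WT, at a log2 difference of 0.63 (standard error 0.10, limma adjusted p 0.00184). As RPM the groups stood closer together, at 207.7, 223.6 and 210.7 in KD and 204.3 in WT. With equal library totals the log2 difference of PLEKHF1 was 0.07 and its limma adjusted p 0.452.

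POP4, the RNase P and MRP subunit gene, had 29957, 25512 and 30006 normalized counts in KD and 6438 in WT. Set 2 was the lowest of KD and still far above WT. POP4 averaged 28492 ± 2580 (SD, n = 3) in KD, a log2 difference of 2.14 with a standard error of 0.14 and a limma adjusted p of 7.66e-05. With the sign counted, 95.5% of tested protein-coding genes had a lower log2 difference, those that fell included. UQCRFS1, the complex III gene, had 1935, 1975 and 2049 normalized counts in KD and 655 in WT. It averaged 1986 ± 57.6 (SD, n = 3) in KD and rose by 1.60 on the log2 scale (standard error 0.10, limma adjusted p 7.12e-05), which 88.3% of tested protein-coding genes did not reach. A non-coding RNA on the opposite strand, AC007786.1, shares 174 exonic bases with UQCRFS1 and had 0 to 4 reads per KD library and 3 in WT. The copy UQCRFS1P1 on another chromosome had 12, 34 and 14 reads in KD and 10 in WT.

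VSTM2B had 0, 4 and 0 reads in KD and 0 in WT, where 0 reads allow up to 3.33 normalized counts. No difference was detectable at this depth. TSHZ3 had 0, 0 and 6 reads in KD and 24 in WT, or 0, 0 and 6.67 normalized counts in KD and 26.7 in WT. The ratio of KD to WT for TSHZ3 was 0.0694, with an exact 95% interval of 0.0232 to 0.174 that covers counting error only. All 6 KD reads came from set 3. Without it, the WT level of TSHZ3 was 20.8 times a floor of 3 reads over sets 1 and 2. This ratio leaves out the counting error of the 24 WT reads.

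**Figure D1:**
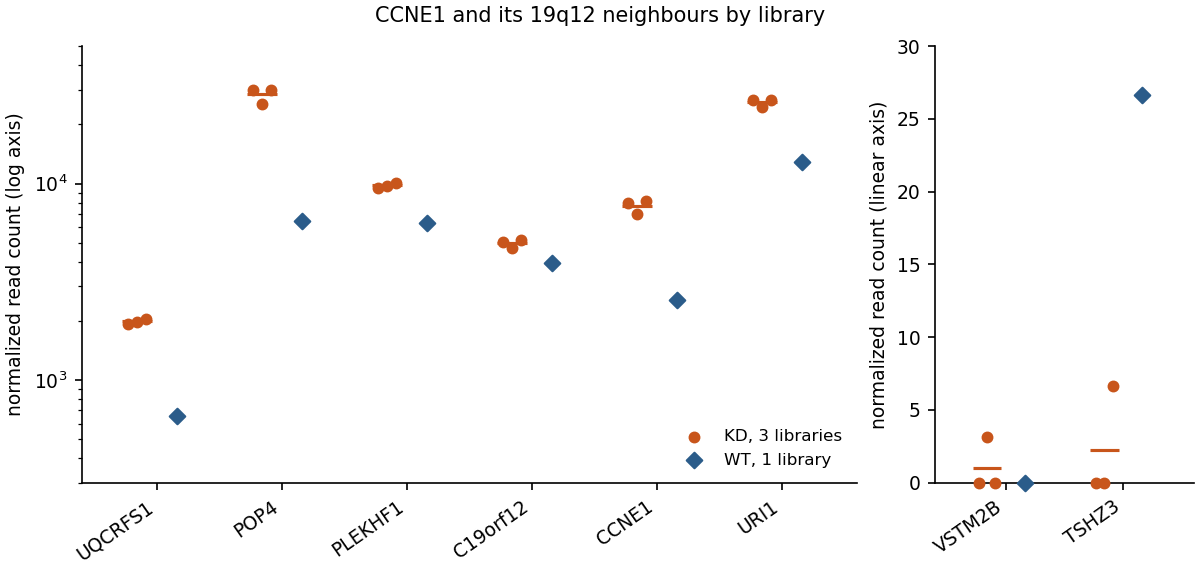
Normalized read count of each of the 8 genes, in the order of their chromosomal positions in each panel, with KD libraries as circles (bar, their mean) and the WT library as a diamond. Left, the 6 tested genes on a log axis; right, VSTM2B and TSHZ3 on a linear axis. All 3 KD values lie above WT for the 6 tested genes, and WT stands highest for TSHZ3.

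Where genes of like exonic length were taken for comparison, the differences among the 6 remained wide. Tested protein-coding genes were split into 5 classes by exonic length, and the median log2 difference was 0.73 in the shortest class (180 to 2849 bp) and -0.10 in the longest (8254 to 118976 bp), so shorter genes had the higher differences. POP4 (6574 bp) lay at the 98.1 percentile of its own class, whose median was 0.18, and UQCRFS1 (3475 bp) at the 85.0 percentile. CCNE1 (2550 bp) was at the 76.1 percentile and URI1 (5432 bp) at the 74.9 percentile. C19orf12 and PLEKHF1 were in the middle of theirs, at the 50.2 and 47.2 percentiles.

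**Figure D2:**
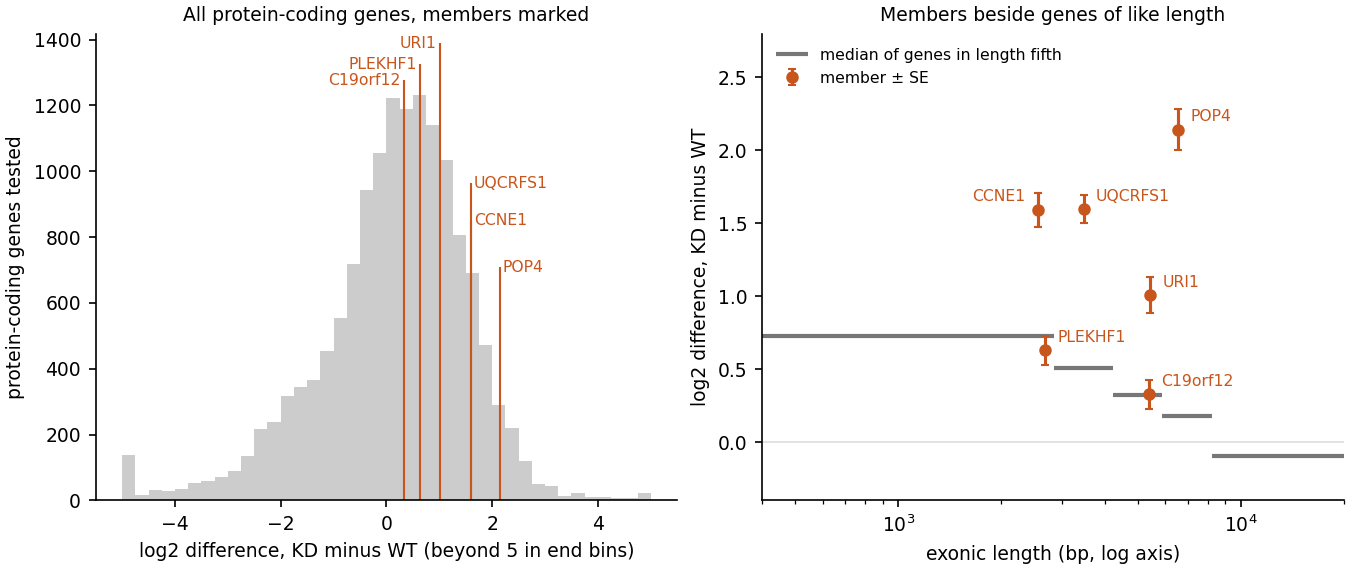
Left, number of tested protein-coding genes by log2 difference, KD minus WT, in bins of 0.25, with lines at the 6 tested members (CCNE1 and UQCRFS1, both at 1.6, share a line). Right, log2 difference of each member (point, with its standard error) against exonic length on a log axis, with the median of protein-coding genes in each of 5 length classes as grey bars (the first and last run on beyond the axis); POP4 stands farthest above its class, and PLEKHF1 and C19orf12 lie near theirs.

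Per exonic length, the 5 genes from POP4 to URI1 ranked high in every library. URI1 stood at 349.7, 356.1 and 350.3 TPM in KD and 336.4 in WT, which placed it above 98.5%, 98.6% and 98.5% of 19849 protein-coding genes in KD and 98.9% in WT. CCNE1 stood at 221.8, 218.3 and 227.4 TPM in KD and 141.6 in WT, at percentiles 97.5, 97.3 and 97.4 in KD and 95.5 in WT. In rank from the top, that was 499, 529 and 518 in KD and 902 in WT, and its level was 14.7 to 16.2 times the median of tested protein-coding genes in KD and 6.40 times in WT.

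POP4 stood at percentiles 98.4, 98.2 and 98.4 in KD and 95.3 in WT, and thereby at rank 321, 349 and 327 in KD and 942 in WT. PLEKHF1 had the opposite shift in rank, with 418, 376 and 415 in KD and 227 in WT. C19orf12 also ranked lower in KD, at percentiles 88.3, 88.1 and 88.2 against 92.3 in WT. UQCRFS1 was at percentiles 81.1, 82.1 and 81.3 in KD and 67.6 in WT. Thus, per exonic length among all protein-coding genes, CCNE1, POP4 and UQCRFS1 ranked higher in every KD library than in WT. URI1, PLEKHF1 and C19orf12 ranked lower in every KD library, while the normalized counts of all 6 were higher. For URI1 the direction depended on this measure, since within chromosome 19 and without division by length it ranked higher in KD. The median percentile of the 6 tested genes was 97.7, 97.7 and 97.6 in KD and 95.4 in WT.

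The order of levels per length was the same in all 3 KD libraries: URI1, POP4, PLEKHF1, CCNE1, C19orf12 and UQCRFS1, with no overlap between neighbouring genes' ranges over the sets. In WT, URI1 and PLEKHF1 came first, and their ratio (PLEKHF1 over URI1) of 0.995, with an exact 95% interval of 0.964 to 1.03, did not separate them. The next pair in WT did not separate either, CCNE1 over POP4 being 1.02 (0.970 to 1.07). C19orf12 and UQCRFS1 followed at 104.4 and 26.8 TPM in WT, as in KD. This order depended on the length used, which was that of all annotated exons. With the longest coding transcript as length, chosen after seeing the data, POP4 stood above URI1 in KD. Their percentiles were then 98.8, 98.7 and 98.8 for POP4 and 98.6, 98.6 and 98.5 for URI1. In WT, POP4 then stood at percentile 96.9 and CCNE1 at 93.7, with URI1 at 98.7 and PLEKHF1 at 98.4.

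Ratios within a library, which no scaling between libraries can change, showed unequal changes within the block. POP4 over C19orf12 per exonic length was 4.87, 4.43 and 4.75 in KD and 1.33 in WT (95% interval 1.28 to 1.39). POP4 over URI1 was 0.928, 0.862 and 0.931 in KD and 0.413 in WT. CCNE1 over URI1, its neighbour on the high side, was 0.634, 0.613 and 0.649 in KD and 0.421 in WT, and CCNE1 over C19orf12 was 3.33, 3.15 and 3.31 in KD and 1.36 in WT. In each of these 4 ratios, the KD values lay above the WT value, beyond its counting interval. UQCRFS1 over CCNE1, by contrast, was 0.179, 0.206 and 0.185 in KD and 0.189 in WT (0.172 to 0.207), with the WT value inside the KD range.

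Tested protein-coding genes around the group had a lower median level than its 6 tested genes, which leave out VSTM2B and TSHZ3. Within 5 Mb of CCNE1, 151 other genes were annotated, 32 of them protein-coding, all at higher coordinates than CCNE1. The median percentile of those tested, 27 genes, was 67.9, 67.5 and 68.1 in KD and 67.4 in WT. That of all tested protein-coding genes was 63.6 in every library. Of the 32, only UBA2, a subunit of the SUMO-activating enzyme, stood above CCNE1 in KD 1, 2 and 3, and UBA2 and GPI, the glycolytic glucose-6-phosphate isomerase, did in WT. None stood above URI1 in KD 2 or WT, and only UBA2 in KD 1 and KD 3. Above UQCRFS1 stood 10, 9 and 8 of the 32 in KD and 12 in WT.

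Of the 27 tested flanking protein-coding genes, 14 were higher, 3 lower and 10 not called, with a median log2 difference of 0.50. Of all tested protein-coding genes, 45.9% were higher and 24.7% lower, with a median of 0.28. For all of chromosome 19 the median was 0.02 over 1049 tested protein-coding genes, of which 350 were higher and 301 lower. The 3 nearest flanking genes that could be tested lay 2.5 to 2.8 Mb from CCNE1. ZNF507, a zinc finger gene, had 6472, 6617 and 6333 normalized counts in KD and 4564 in WT, and rose. DPY19L3, a C-mannosyltransferase gene, had 5363, 5517 and 5441 in KD and 6590 in WT (log2 difference -0.28), and fell. PDCD5, which encodes a protein that binds the chaperonin CCT, had 2601, 2238 and 2802 in KD and 688 in WT (log2 difference 1.88), and rose. The flanking genes thus differed in direction, whereas all 6 tested members were higher. The call of DPY19L3 was near the threshold, with a limma adjusted p of 0.0349. Lower calls among the flanking protein-coding genes numbered 2 in place of 3 with TMM or median-of-ratios scaling, and with edgeR or DESeq2. They also numbered 2 without KD 1 or without KD 3.

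**Figure D3:**
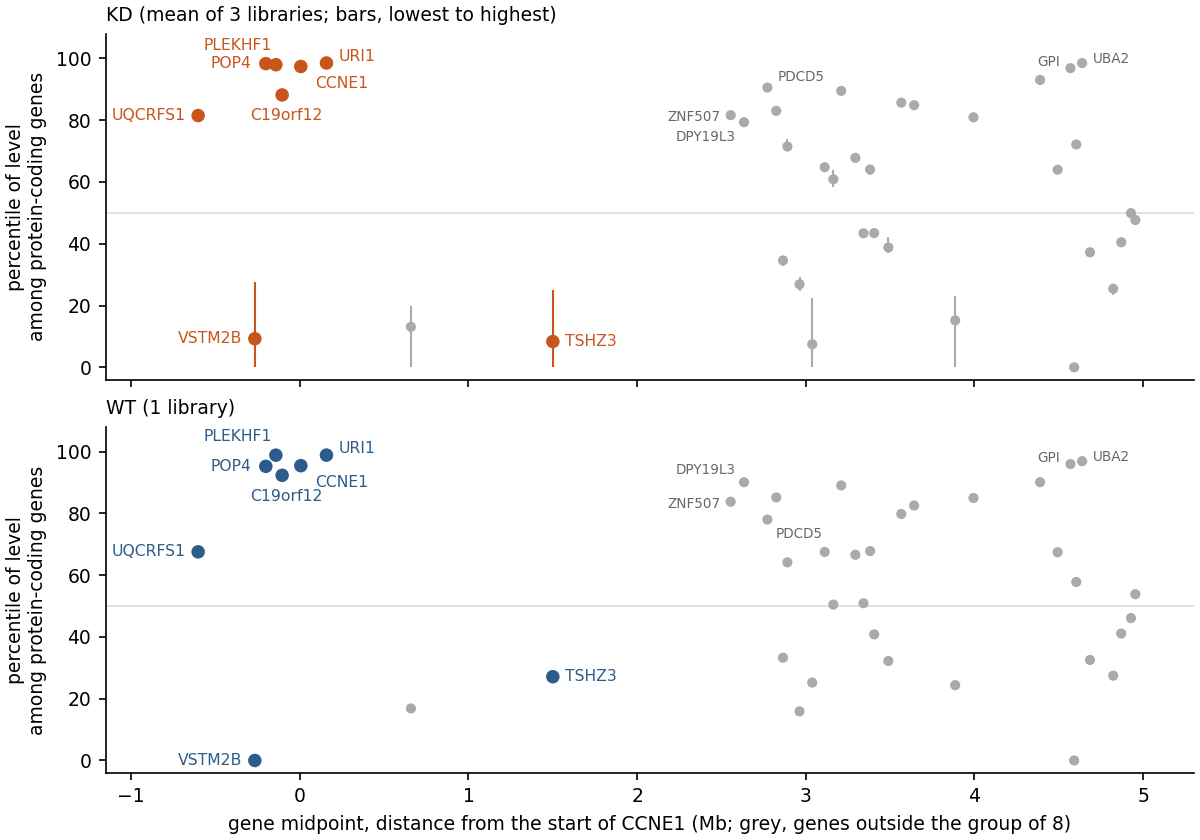
Percentile of the level per exonic length among 19849 protein-coding genes, by distance of the gene midpoint from the start of CCNE1 in Mb. The upper panel gives KD (mean of 3 libraries, with a bar from the lowest to the highest) and the lower WT; coloured points are the 8 genes, grey points the 32 other protein-coding genes within 5 Mb. POP4, PLEKHF1, CCNE1 and URI1 stand above the 95th percentile in both groups.

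Non-coding transcripts in and next to URI1, named after their values were seen, moved the other way. RPL9P32 (29956369 to 29956988), a processed pseudogene of the ribosomal protein gene RPL9, lies inside URI1 on the opposite strand and shares no exonic base with it. It had 74.9, 90.9 and 74.5 normalized counts in KD and 1122 in WT, a log2 difference of -3.80. Beyond URI1, the long non-coding RNA ENSG00000267006 had 182.9, 266.5 and 177.9 in KD and 982 in WT, and the pseudogenes TAF9P3 and ENSG00000266910 fell too, with log2 differences of -3.25 and -2.61. The limma adjusted p of the 4 was at most 0.00512. Of 1785 processed pseudogenes tested anywhere, 62.3% were called lower, with a median of -2.22. Of all 7733 tested genes that are not protein-coding, 55.8% were called lower, with a median of -1.70. Whether the counting used strand, and what was done with reads matching more than 1 gene, is not stated in the sources used here, so reads of URI1 introns, of RPL9 and of RPL9P32 cannot be told apart.

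For the cyclin E kinase, 7 of 8 listed genes were higher and 1 was lower, at a median log2 difference of 1.41. CKS2 and CKS1B, small subunits that bind cyclin-dependent kinases, rose by 2.60 and 2.26 on the log2 scale, CDK7, the kinase that activates CDK2, by 1.84, and CDC25A, the phosphatase that removes the inhibitory phosphate, by 1.5. CCNH, the cyclin of CDK7, fell by 0.51, with 2988, 2832 and 2854 normalized counts in KD and 4108 in WT. CDK2 itself, named after its values were seen, had 2979, 2780 and 2865 in KD and 1154 in WT. Per exonic length, CCNE1 was 6.29, 6.00 and 6.77 times the median of this list in KD and 3.98 times in WT. CKS2 stood above CCNE1 in each KD library and no gene of the list did in WT.

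The close relative CCNE2, encoding cyclin E2, had 625, 583 and 661 normalized counts in KD and 281 in WT, a log2 difference of 1.14. Per exonic length CCNE1 was 21.9, 20.8 and 21.2 times CCNE2 in KD and 15.6 times in WT, so most cyclin E transcript was CCNE1 in every library. Among 5 inhibitors of the kinase, 4 were higher and 1 lower. CDKN1B (p27) and WEE1, the inhibitory kinase, rose by 1.13 and 0.86. CDKN1C (p57) had 41.7, 49.7 and 62.3 normalized counts in KD and 4.44 in WT. CDKN1A (p21) fell, with 28.4, 35.7 and 33.4 in KD and 181.0 in WT.

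In the turnover of cyclin E, 5 of 8 listed genes were higher, 2 lower and 1 not called. CUL1, the scaffold of SCF, rose by 1.40, SKP2, a substrate receptor of SCF, by 1.28, RBX1, its RING subunit, by 0.94, and CUL3, scaffold of another cyclin E ligase, by 0.78. FBXW7, the receptor that recognizes cyclin E, had 1454, 1399 and 1340 normalized counts in KD and 1694 in WT. SKP1, the SCF adaptor, had 1909, 1917 and 1893 in KD and 2462 in WT. Their log2 differences were -0.28 and -0.37, with limma adjusted p of 0.0496 and 0.0124, and at least 1 of these calls was lost in 10 of the 14 alternatives.

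Among 13 genes of the RB and E2F control of CCNE1, 10 were higher, none lower and 3 not called, at a median of 0.83. CDK4 and CCND1, the kinase and cyclin that inactivate RB, rose by 1.65 and 1.49, RBL1 (p107), an RB relative, by 1.34, and E2F1, which activates CCNE1, by 1.32. Of 6 substrates of cyclin E with CDK2, 5 were higher. NPM1, the nucleolar chaperone, rose by 2.36, CDC6, a replication licensing factor, by 1.48, CCP110, a centriole protein, by 1.41, and MYBL2, a cell cycle transcription factor, by 1.18. No test of these lists, or of those that follow, against other genes was made, and 45.9% of tested protein-coding genes were higher.

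Of 10 partners of URI1 in the prefoldin-like and R2TP complexes, 8 were higher and 2 were not called, at a median of 1.10. Among all tested protein-coding genes 45.9% were higher, at a median of 0.28. RPAP3 and RUVBL2, both R2TP subunits, rose by 1.55 and 1.40, and the prefoldin and prefoldin-like subunits PFDN6 and PDRG1 by 1.53 and 1.42. URI1 stood above all 10 in every library per exonic length, at 6.71, 6.46 and 6.42 times their median in KD and 6.79 times in WT. The next, RUVBL2, was exceeded 2.76-, 2.49- and 2.55-fold in KD and 3.40-fold in WT.

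Of 11 other components of RNase P and RNase MRP, 9 were tested. Of these, 8 were higher and RPP14 was not called, at a median of 1.37. The share called higher was 45.9% of tested protein-coding genes and 31.4% of all tested genes. RMRP, the RNA of RNase MRP, rose by 2.63, and the protein subunits POP7, RPP40 and RPP30 by 2.43, 2.07 and 1.54. RPP21 and RPPH1, the RNA of RNase P, were listed at 0 reads in all 4 libraries. A listed 0 gives no measured level, so RPP21 was left out of the comparison of levels. POP4 exceeded all 8 other listed protein subunits with reads, and was 19.2, 18.1 and 18.6 times their median in KD and 10.2 times in WT. The next, POP5, was exceeded 3.26-, 3.56- and 3.68-fold in KD and 2.04-fold in WT.

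Of 15 complex III subunits and assembly factors, 11 were higher and 4 not called, at a median of 1.5. Here too the share over tested protein-coding genes was 45.9% higher. The subunits UQCRB, UQCRH and UQCR10 rose by 2.35, 2.33 and 1.95, and LYRM7, the chaperone that delivers the UQCRFS1 protein, by 1.84. UQCRFS1 was below the middle of this list, at 0.479, 0.528 and 0.564 times its median in KD and 0.464 times in WT, with 8 of the 15 above it in each KD library and 11 in WT. Mitochondrially encoded MT-CYB was not called, with 4045, 3830 and 4205 normalized counts in KD and 4208 in WT.

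**Figure D4:**
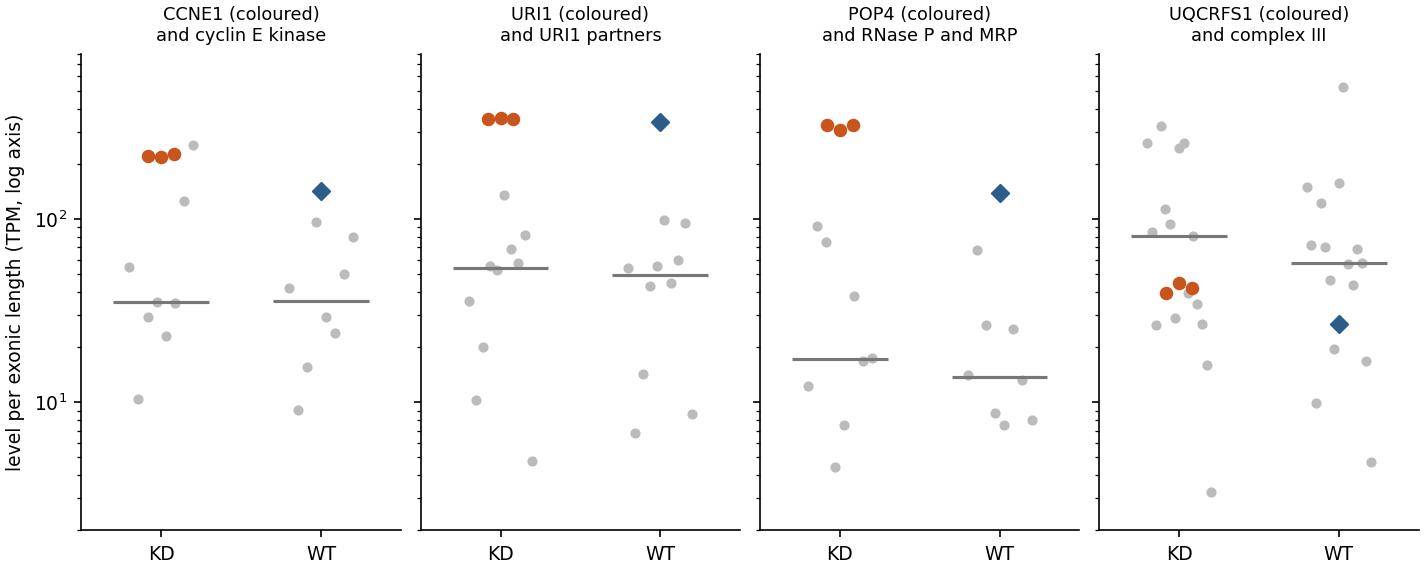
Level per exonic length (TPM, log axis) of CCNE1, URI1, POP4 and UQCRFS1 (KD libraries as orange circles, WT as a blue diamond) with the protein-coding genes of their partner lists as grey points (KD mean and WT) and the list median as a grey bar. RPP21, which had no read, is left out. URI1 and POP4 stand above every partner drawn in both groups, CCNE1 above all but CKS2 in KD, and UQCRFS1 below the list median.

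Of 6 other paralogs and relatives of the group, 5 were tested, of which 3 were higher, 1 lower and 1, TSHZ1, not called. PLEKHF2, the relative of PLEKHF1, had 2457, 2316 and 2301 normalized counts in KD and 807 in WT, a log2 difference of 1.54. Per exonic length PLEKHF1 was 4.54, 4.94 and 5.11 times PLEKHF2 in KD and 9.16 times in WT. VSTM2L rose, with 18.96, 22.5 and 8.89 normalized counts in KD and no read in WT, and VSTM2A had no read in any library. TSHZ2, a relative of TSHZ3, had 1425, 2087 and 1568 normalized counts in KD and 5496 in WT, and fell by 1.72 on the log2 scale.

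The 5 protein-coding genes whose centred log2 profile over the 4 libraries was nearest to that of CCNE1, by Euclidean distance, were OTULINL, NAP1L1, RAD17, GTF2H2C and TGFBR2, at distances of 0.0118 to 0.0274. OTULINL had 2487, 2184 and 2538 normalized counts in KD and 799 in WT, with set 2 again the lowest of KD. None of the 5 lies on chromosome 19. With 4 libraries, of which 3 are of one kind, this likeness rests on few contrasts.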

How the data were processed

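Total RNA of 4 libraries had been depleted of ribosomal RNA and sequenced with strand marking, per the labels' protocols. The tools named in the submitters' processing notes are DESeq2, STAR 2.7.11b and featureCounts 2.0.6, on hg38. Annotation release, strand setting and the handling of multi-mapping reads were not given in the sources used here. Per gene, the authors deposited a signal that is a normalized read count. In each library 100% of them were whole multiples of 1 step, within 0.001 reads, so reads were recovered. Gene models came from GENCODE 29 (92.9% of identifiers found), and TPM was computed on union exon lengths.

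Differences were tested with limma-trend (limma 3.58.1, R 4.3.3) on log2(normalized count + 1), for 23344 genes with a mean of at least 10, two-sided, with Benjamini-Hochberg adjustment at 0.05. The spread comes from the KD libraries, and the lone WT library is assumed to vary like them. Fold changes on this scale understate those of low genes. edgeR 4.0.16 and DESeq2 1.42.0 on the recovered reads, other scalings, filters, pseudocounts and lengths were alternatives. On simulated data for KD against WT over 23344 genes, the test found 70 of 100 genes simulated with a 2-fold change and 100 of 100 with a 4-fold change, and made 22 false calls. Only these genes were changed in the simulation, and the spread beyond counting error was set equal for all genes. In the data 67.7% of tested genes were called, so these rates may not hold for them.

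The members and lists were chosen with earlier results of these data known. Named were all members, the 3 nearest tested flanking genes per side, up to 4 called genes with the largest difference per list and up to 2 against the list's median sign, and the 5 profiles nearest CCNE1. Intervals and floors (3 reads, 95% level) cover counting error only, as the sources used here name no molecular identifiers.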

Additional observations from a re-analysis of the deposited data

How the results depend on the processing

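CCNE1, POP4, UQCRFS1 and URI1 kept their call in all 14 alternatives, with log2 differences of 1.03 to 1.87, 1.58 to 2.42, 1.04 to 1.88 and 0.45 to 1.29. PLEKHF1 spanned 0.07 to 0.91 and lost its call with equal library totals. C19orf12 turned to -0.23 with equal library totals and was not called without a filter (limma adjusted p 0.0644), without KD 1 or without KD 3. Equal totals moved the median of tested genes to -0.84, and all members with it. The share of higher among called genes was 46.4% in the main test, 27.5% with equal totals, 50.9% with TMM and 56.9% with median-of-ratios scaling. With equal totals, 4746 genes were higher and 12509 lower, against 7329 and 8465; 1 member was lower, and of the flanking protein-coding genes 8 were higher and 7 lower, against 14 and 3. The same scaling gave lower calls for 3 genes of RB and E2F control, 1 substrate, 1 URI1 partner, 1 RNase P and MRP component, 3 of complex III and 2 paralogs. Genes called lower numbered 5086 at a mean of at least 50 and 3710 among protein-coding genes alone, where fewer genes were tested. The cause of the other shifts was not tested. No kinase gene was lower with median-of-ratios scaling. Of the turnover list, 1 gene was lower without a filter, at a mean of at least 50, with TMM, with edgeR, at WT depth and without each KD replicate in turn (1 to 1), and 0 with median-of-ratios scaling and DESeq2. edgeR called 7973 genes higher and 8514 lower, and DESeq2 7833 and 6016.

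The median percentile of the 6 tested members was 96.8, 96.9 and 96.8 in KD and 93.6 in WT among tested protein-coding genes, 97.2, 97.2 and 97.2 in KD and 94.4 in WT within chromosome 19, and 94.2, 94.0 and 94.1 in KD and 93.2 in WT without division by length. With the longest coding transcript as length, an alternative chosen after seeing the data, it was 97.0, 97.1 and 97.0 in KD and 95.3 in WT. URI1 changed direction in some of these rankings. Within chromosome 19 its rank from the top was 30, 29 and 29 in KD and 33 in WT. Without division by length its percentiles were 99.05, 99.04 and 99.02 in KD and 98.65 in WT. PLEKHF1 without division by length stood above WT in KD 2 (95.49 against 95.35) and below it in KD 1 and KD 3. No paired analysis was possible because WT is 1 library and shares fewer than 2 replicate numbers with KD. The single WT library, without a replicate, limits every difference, and the depth limits VSTM2B and TSHZ3.

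Leaving MUC16 out of the epithelial sum and RPP21 out of the median of POP4 partners were also choices made after seeing the data. With RPP21 counted at 0, POP4 was 20.2, 18.2 and 19.2 times that median in KD and 10.6 times in WT.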
